A study of Mus musculus with 4 samples.

Results

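Conduit artery endothelial cells (ECs) line the larger arteries feeding the heart wall. Cells given this name by their transcripts made up 2064 of the 41843 cells in the 4 single-cell libraries of sorted mouse left ventricular ECs. Where in the vessel tree these cells lay was not measured. They were selected on measured counts of unique molecular identifiers (UMIs, each standing for 1 captured transcript). A cell was kept with over 200 genes, under 20% mitochondrial UMIs and under 1% hemoglobin UMIs, which left 39829 cells. It was an EC with at least 3 UMIs in all of Pecam1, Cdh5, Kdr, Tie1, Egfl7 and Cldn5 with at most 1 UMI in all of the pericyte genes (Kcnj8, Abcc9, Vtn, Pdgfrb) and at most 1 in all of the proliferation genes (Mki67, Top2a, Birc5), which left 35385 ECs. It was a conduit artery EC with at least 2 UMIs in all of Gja5, Fbln5 and Bmx and none of the vein genes Selp and Sele or of the endocardial and lymphatic genes Npr3, Prox1 and Mmrn1. The 31763 ECs that met every criterion but held 0 or 1 UMI of Gja5, Fbln5 and Bmx served for comparison and are called other ECs.

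The ECs carried the red fluorescent reporter R26-stop-tdTomato, switched on by a Cdh5-driven, tamoxifen-inducible Cre. The Scarb1 gene of the mice, encoding scavenger receptor SR-B1, was floxed on 1 or both alleles, and the floxed line was made from C57BL/6N mice. All mice received 5 tamoxifen injections of 100 mg/kg from 7 weeks of age. Mice of the 2 NC libraries ate chow (10% of calories as fat), and those of the 2 HFpEF libraries (heart failure with preserved ejection fraction) ate a high-fat diet (60%) and drank 0.5 mg/ml of the nitric oxide synthase inhibitor L-NAME, for 20 weeks in either case. The labels give the diet of a library but not its Scarb1 genotype, while the design names 4 groups of genotype and diet, as many as there are libraries. If each library is 1 of these groups, the 2 libraries of a diet differ in genotype, and the SDs and p-values given for diet hold that difference as well as the spread between libraries, which may be technical. The number of mice behind a library is not given in the sources used here.

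Arterial ECs are set apart from capillary and venous ECs by Notch signalling, which high flow sustains and which holds genes such as Hey1 and the connexins Gja4 and Gja5 on. In larger arteries the endothelium rests on an elastic lamina and faces smooth muscle, to which it signals through nitric oxide, endothelin and potassium channels. Fatty acid uptake from blood, by contrast, is known as a task of the capillary endothelium of the heart.

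The conduit artery ECs numbered 423 in NC library 1, 530 in NC library 2, 204 in HFpEF library 1 and 907 in HFpEF library 2. Their UMIs summed to 2221844, 2934723, 577585 and 3335532 in that order, so HFpEF library 1 gave the least precise values. In the same order, the median conduit artery EC held 4530, 5031, 2586 and 2927 UMIs and the median other EC 3684, 4009, 1755 and 1662. Depth per cell was thus lower in both HFpEF libraries, and higher in conduit artery ECs than in other ECs of each library. Between 9 and 39 cell barcodes were shared by a pair of libraries, at most 0.717% of the smaller one. Levels below are UMIs per 1000000 UMIs (CPM), summed over the cells of a class in a library, listed as NC library 1, NC library 2, HFpEF library 1 and HFpEF library 2.

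Clu and Mgp are the markers of the label that the rule did not read. They were measured in the same cells, and genes expressed together with Gja5, Fbln5 or Bmx were bound to differ. Their values thus describe the chosen cells and are no independent check of the label. Clu (chr14:65968483-65981547, GRCm38), which encodes the secreted chaperone clusterin, stood at 442, 420, 523 and 521 CPM in conduit artery ECs and at 17.3, 13.0, 21.7 and 29.5 CPM in other ECs. Mgp (chr6:136872435-136875823), which encodes the calcification inhibitor matrix Gla protein, stood at 875, 1538, 912 and 878 CPM against 19.2, 22.6, 51.6 and 38.8 CPM. Both genes were higher in conduit artery ECs of each library without overlap, with fitted ratios of 22.7-fold for Clu (log2 4.51 ± 0.10 SE, edgeR adjusted p = 9.5e-15) and 32.4-fold for Mgp (log2 5.02 ± 0.22 SE, edgeR adjusted p = 2.1e-11). After every cell was thinned to 1000 UMIs, a Clu UMI was seen in 27.1%, 26.7%, 32.6% and 30.1% of conduit artery ECs (47.8%, 50.9%, 49.0% and 49.5% unthinned) and in 1.53%, 1.07%, 1.55% and 2.24% of other ECs (3.68%, 3.71%, 2.69% and 3.92% unthinned). A Mgp UMI was seen in 17.9%, 28.8%, 21.2% and 22.0% of thinned conduit artery ECs (27.0%, 38.7%, 30.4% and 29.8% unthinned) and in 1.24%, 1.38%, 1.68% and 1.92% of thinned other ECs (2.99%, 3.79%, 2.44% and 3.12% unthinned). Thinning left out 3, 5, 11 and 47 conduit artery ECs and 217, 174, 608 and 3421 other ECs with fewer UMIs, and both genes were thus seen in a minority of conduit artery ECs at that depth. The 3 genes that chose the cells are given as a description only. Gja5, a gap junction protein of arterial ECs, stood at 145, 137, 93.5 and 121 CPM in the chosen cells. Fbln5, a matrix protein that organises elastic fibres, stood at 764, 849, 1110 and 961 CPM, and Bmx, a non-receptor tyrosine kinase of arterial ECs, at 54.5, 74.3, 67.5 and 54.9 CPM.

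**Figure D1:**
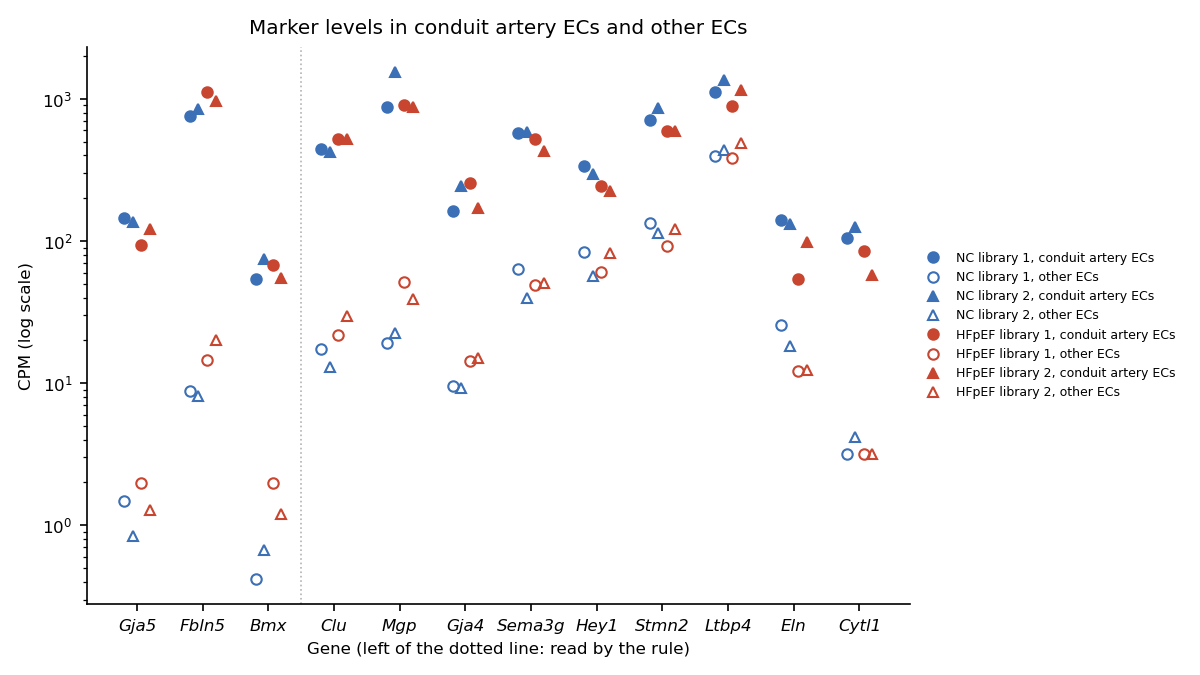
Levels of 12 genes in CPM (log scale) in conduit artery ECs (filled) and other ECs (open), 1 symbol per library (blue NC, red HFpEF, circle library 1, triangle library 2). Gja5, Fbln5 and Bmx chose the cells, and for the genes right of the dotted line, Clu and Mgp among them, the filled symbols also lie above all open ones.

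The cells just inside and just outside the limit of 2 arterial UMIs lay on a gradient. Cells with 1 UMI of Gja5, Fbln5 and Bmx, which count as other ECs, held 93.8, 73.5, 169 and 195 CPM of Clu and 58.8, 99.3, 269 and 290 CPM of Mgp. Cells with exactly 2 UMIs held 162, 167, 301 and 294 CPM of Clu and 117, 270, 490 and 460 CPM of Mgp. In both bands, Clu and Mgp were higher in the HFpEF libraries, whose cells were shallower, than in the NC libraries. Conduit artery ECs with 4 or more UMIs held 685, 535, 703 and 690 CPM of Clu and 1388, 2154, 1349 and 1204 CPM of Mgp. The water channel gene Aqp1, abundant in other ECs, went the other way, from 1961, 2084, 1525 and 1143 CPM in cells with none of the 3 genes to 216, 195, 113 and 163 CPM in cells with 4 or more UMIs.

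**Figure D2:**
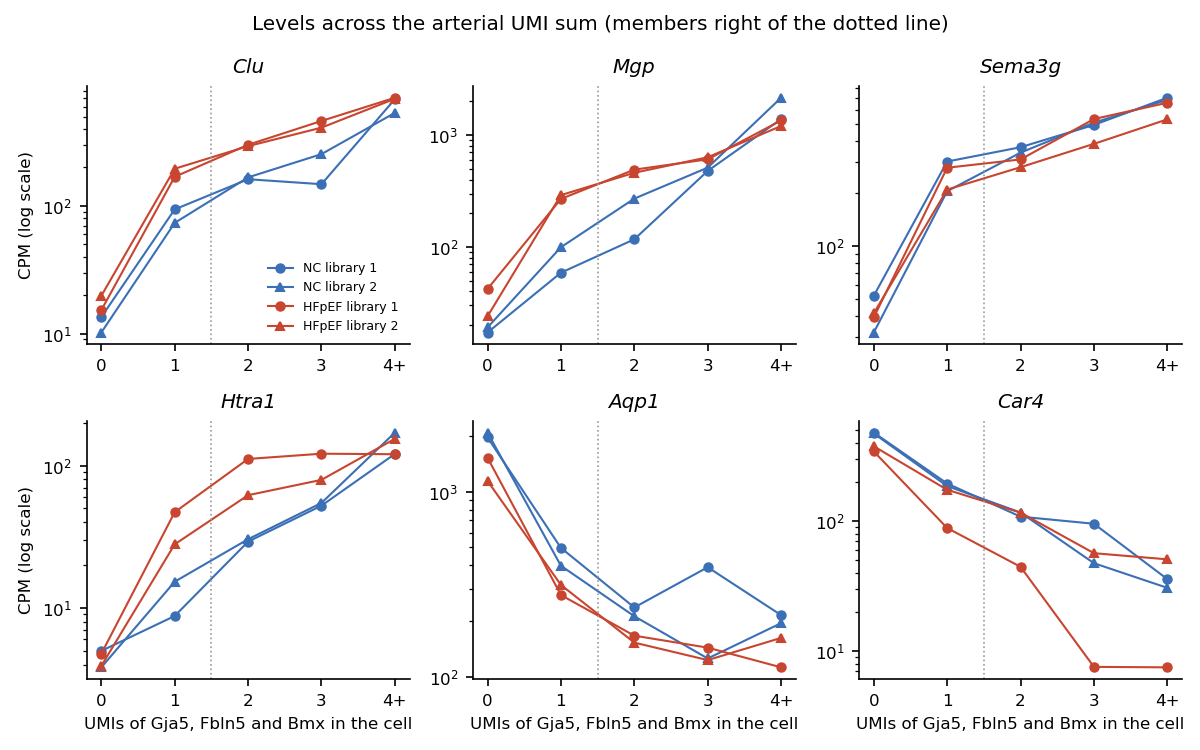
Levels of 6 genes in CPM (log scale) against the number of Gja5, Fbln5 and Bmx UMIs in the cell, 1 line per library (blue NC, red HFpEF, circle library 1, triangle library 2). Conduit artery ECs lie right of the dotted line, and Clu rises from 10.2 to 19.7 CPM at 0 UMIs to 535 to 703 CPM at 4 or more while Aqp1 falls.

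Which other genes set conduit artery ECs apart was asked by comparing them with the other ECs of the same library. Genes were tested on the summed counts with edgeR's quasi-likelihood test with library as a term, and a gene was called at a Benjamini-Hochberg adjusted p under 0.05. Of 11079 genes tested that the rule did not read, 1850 (16.7%) were called higher in conduit artery ECs and 1668 (15.1%) lower. The cells of both classes came from the same libraries, and genes that are expressed together with Gja5, Fbln5 or Bmx were bound to differ, so this background is printed for reading the counts of gene lists below. Read with the rule applied to a random part of each cell's UMIs and the levels taken from the rest, 2359 genes were called. In those separate UMIs Clu stood at 546, 534, 613 and 606 CPM in conduit artery ECs and 23.9, 20.7, 30.2 and 39.6 CPM in other ECs.

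Npnt (chr3:132881745-132950291), the integrin ligand nephronectin, stood at 25.7, 11.2, 31.2 and 27.3 CPM in conduit artery ECs and at no more than 0.389 CPM in other ECs, the highest ratio of the named genes (log2 7.02 ± 0.40 SE). Syt15, a synaptotagmin, stood at 18.0, 32.4, 29.4 and 16.8 CPM (log2 6.20), and Gper1, a G protein-coupled estrogen receptor, at 15.8, 23.2, 22.5 and 20.4 CPM (log2 5.44). These 3 genes stayed under 1 CPM in other ECs of every library. Tmem100, a membrane protein induced by BMP9 and BMP10 through ALK1, stood at 38.3, 52.1, 39.8 and 49.5 CPM (32.0-fold), and the phospholipase gene Plcg2 at 19.4, 33.7, 36.4 and 23.7 CPM (log2 4.88). Lox, which encodes lysyl oxidase, the enzyme that cross-links elastin and collagen, had a log2 ratio of 4.86. Aif1l, Mal, Cytl1, S100a4, Col5a2, Pcsk5 and Myh11 completed the 15 highest, with log2 ratios between 4.41 and 4.72 (edgeR adjusted p of at most 1.6e-09 for all 15). Without HFpEF library 2 the log2 ratio of Npnt was 8.65 and that of Myh11 was 5.11.

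The genes with the lowest ratios included markers of capillary ECs. Aqp1 stood at 256, 189, 137 and 152 CPM in conduit artery ECs and at 1891, 2010, 1472 and 1097 CPM in other ECs, 8.97-fold lower in conduit artery ECs. Car4, a carbonic anhydrase of capillary surfaces, stood at 66.6, 50.4, 19.0 and 70.2 CPM against 466, 460, 333 and 365 CPM, 7.52-fold lower. Aplnr, the apelin receptor of capillary and venous ECs, stood at 8.10, 6.13, 1.73 and 9.29 CPM against 57.7, 98.1, 69.1 and 91.5 CPM. Samd5, Trp53i11, Bok, Klra9 and Adh1 were lower by log2 values of 2.91 to 3.54. The immunoglobulin gene Igkc had the lowest ratio (log2 -6.95), but 7897 of its 8568 UMIs in the other ECs of NC library 2 lay in 1 cell, and without that library the log2 ratio was -3.16 (-9.08 without HFpEF library 2).

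Of the 25 artery identity genes, 23 were called higher in conduit artery ECs and 1 lower, with a median log2 ratio of 1.20 against -0.01 over all genes tested. The connexin gene Gja4 stood at 162, 243, 256 and 171 CPM against 9.53, 9.19, 14.3 and 15.1 CPM in other ECs (16.2-fold), and the semaphorin gene Sema3g at 572, 588, 521 and 430 CPM against 63.9, 39.6, 49.2 and 50.6 CPM (9.94-fold). Vegfc, a growth factor for lymphatic vessels, stood at 371, 457, 476 and 332 CPM (log2 2.99), and Stmn2, a regulator of microtubules, at 713, 860, 590 and 595 CPM (log2 2.51). These 4 genes were higher in conduit artery ECs of every library. Sox17, a transcription factor of arterial fate, stood at 587, 552, 445 and 449 CPM against 372, 297, 322 and 290 CPM, only 1.53-fold higher, and Efnb2, a ligand of venous Eph receptors, had a log2 ratio of 0.86. Nrp1, a co-receptor for VEGF, was lower (log2 -0.50 ± 0.05 SE), and Cxcl12, a chemokine of arterial and capillary ECs, was not called at 1823, 1579, 1453 and 2266 CPM (log2 -0.03 ± 0.05 SE, edgeR adjusted p = 0.67). Cxcr4 was not called without NC library 2 (log2 0.36 with it and 0.30 without).

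Of the 14 Notch pathway genes, some of which are also artery identity genes, 9 were called higher and 1 lower. Among ligands, Jag1 stood at 164, 245, 260 and 314 CPM against 33.6, 29.6, 42.2 and 57.8 CPM in other ECs (log2 2.53), while Jag2 and Dll4 differed less (log2 0.81 and 0.74). The receptors Notch1 and Notch4 had log2 ratios of 0.72 and 0.44. Among targets, Hey1 stood at 338, 294, 244 and 226 CPM against 83.4, 56.4, 60.2 and 82.8 CPM (log2 1.89), and Hey2, Heyl and Nrarp were also called higher. In the comparison below with other ECs holding Gja4, Hey1 and Sema3g UMIs, Heyl (log2 0.00) and Notch4 (0.15) were not called. Hes1, another target, was lower in conduit artery ECs at 428, 351, 322 and 341 CPM against 529, 428, 487 and 429 CPM (log2 -0.42 ± 0.06 SE).

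Genes of the vessel wall matrix and of the basement membrane differed in opposite directions. Of 22 elastic fibre and vessel wall matrix genes, 16 had enough counts to be tested, and 11 were called higher and 2 lower. Eln, which encodes elastin itself, stood at 140, 131, 53.7 and 97.7 CPM against 25.7, 18.4, 12.2 and 12.4 CPM (6.21-fold). Fn1, fibronectin, stood at 391, 433, 379 and 448 CPM against 35.2, 29.0, 36.7 and 42.8 CPM (11.2-fold), and Ltbp4, which binds latent TGF-beta and elastic fibres, at 1109, 1364, 892 and 1152 CPM (log2 1.34). All 3 were higher in conduit artery ECs of every library. Fbln2, Fbn1, Bgn, Ltbp1, Loxl2 and Tgfb2 were called higher too, and Emilin1 and Mfap2 lower. Of these, Loxl2 (log2 0.75) was not called without NC library 1 (0.80), HFpEF library 1 (0.63) or HFpEF library 2 (0.75). Of 14 basement membrane genes, 10 were called lower, among them the collagen IV genes Col4a1 (log2 -0.69 ± 0.05 SE) and Col4a2 (log2 -0.71 ± 0.06 SE) and the perlecan gene Hspg2 (log2 -0.77 ± 0.06 SE). The other 4 were called higher: the collagen gene Col18a1 at 111, 174, 196 and 168 CPM against 7.81, 9.11, 9.46 and 12.4 CPM (15.3-fold), and the laminin genes Lama3, Lama5 and Lamb2 with log2 ratios of 2.98, 0.97 and 1.11. The laminin gene Lamc1, among the lower, was not called without NC library 2 (log2 -0.21, against -0.33).

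Of 18 vasoactive genes that the rule did not read, 14 were tested, and 8 were called higher and 5 lower. Edn1, the precursor of the vasoconstrictor endothelin-1, stood at 159, 228, 137 and 268 CPM against 23.6, 19.4, 17.6 and 42.7 CPM (7.47-fold). Ace, angiotensin-converting enzyme, stood at 158, 186, 128 and 118 CPM against 23.6, 16.5, 15.4 and 15.6 CPM (7.95-fold). Both were thus several-fold higher in conduit artery ECs of each library. Nos3, endothelial nitric oxide synthase, differed less, at 190, 165, 161 and 157 CPM against 129, 124, 111 and 107 CPM (log2 0.45 ± 0.06 SE). Kcnn3 and Kcnn4, the small and intermediate conductance calcium-activated potassium channels of arterial ECs, were called higher at low levels of 3.15 to 13.3 CPM, and Ece1, Gch1 and Ddah2 were also called higher, Ddah2 (log2 0.19) only with all 4 libraries or without NC library 2 (without the others 0.15 to 0.19). Called lower were the peptide gene Adm (log2 -2.28), the endothelin receptor Ednrb (log2 -1.21), Ptgs1 and the natriuretic peptide receptors Npr1 and Npr2.

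Flow, growth factor and clotting genes went both ways. Of 14 shear and flow response genes, 5 were called higher (Klf4, Nfe2l2, Nos3, Pi16, Slc9a3r2) and 5 lower (Cav1, Egr1, Hmox1, Thbd, Txnip), while Klf2, the best known flow-induced factor, was not called at 3462, 3556, 3137 and 2586 CPM against 3528, 2978, 3015 and 2293 CPM (log2 0.05 ± 0.04 SE). Of 16 BMP and TGF-beta pathway genes tested, 7 were called higher and 5 lower. The ALK1 receptor Acvrl1 (log2 0.79), the inhibitory factors Smad6 (log2 1.45) and Smad7 (log2 0.53) and the ligand Tgfb2 (log2 3.18) were among the higher, and the target Id3 (log2 -0.24) among the lower. Smad7 was not called (0.07), but Smad6 was (0.49), against the other ECs with Gja4, Hey1 and Sema3g UMIs described below. Of 8 coagulation genes tested, 2 were called higher, Plat and Vwf, and 3 lower, Tfpi and Thbd among them. Of the 16 heat shock and immediate early genes, 7 were called higher and 5 lower, with a median of -0.04. Small differences here were lost without some libraries: Klf4 and Junb without NC library 2 (log2 0.09 for both) or HFpEF library 1 (0.12 and 0.13), Slc9a3r2 without NC library 2 or HFpEF library 2 (0.13 for both), and Ier2 without NC library 1 or 2 (0.18 and 0.13). Hmox1 was lost without HFpEF library 2 (-0.39), Tgfbr3 without NC library 1 or HFpEF library 1 (-0.24 and -0.26), Fos without NC library 1, NC library 2 or HFpEF library 1 (0.13, 0.083 and 0.11), and Egr1 without NC library 1, HFpEF library 1 or HFpEF library 2 (-0.12, -0.090 and -0.094).

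Of 16 chemokine and adhesion genes tested, 8 were called higher and 3 lower. The adhesion receptor Vcam1 stood at 58.1, 122, 91.8 and 93.5 CPM against 30.8, 34.4, 34.7 and 43.0 CPM (log2 1.27), and the membrane-bound chemokine Cx3cl1 had a log2 ratio of 1.15. The cytokine gene Il6 stood at 20.7, 32.7, 50.2 and 101 CPM against 5.92, 6.72, 11.6 and 38.2 CPM (log2 1.69). The CXCR3 ligands went the other way, Cxcl9 at 36.0, 21.8, 15.6 and 31.5 CPM against 109, 128, 188 and 156 CPM (log2 -2.34) and Cxcl10 with a log2 ratio of -1.04. Against the other ECs with Gja4, Hey1 and Sema3g UMIs described below, Cxcl9 was called lower (-1.23) and Cxcl10 was not called (-0.30). Without NC library 1, Icam1 (log2 0.35) and Tnfaip3 (0.41) were not called (0.24 and 0.28).

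Of 28 interferon and antigen presentation genes tested, 6 were called higher and 9 lower, and 4 of the higher were of the MHC class II pathway. Among the lower, Tap1 lost its call whichever library was left out (log2 -0.21 to -0.18) and Nlrc5 not without NC library 1 (-0.57) or HFpEF library 2 (-0.53). Cd74, the class II invariant chain, stood at 77.9, 194, 204 and 248 CPM against 39.8, 49.3, 61.8 and 49.9 CPM (log2 1.77), and H2-Aa, H2-Ab1 and H2-Eb1 had log2 ratios of 1.78, 1.49 and 1.56. A few cells held many of the Cd74 UMIs: 1 conduit artery EC held 167 of 568 in NC library 2 and 1 held 106 of 827 in HFpEF library 2, and among other ECs of NC library 1 a single cell held 360 of 947. In cells thinned to 1000 UMIs, a Cd74 UMI was seen in 4.76%, 5.14%, 8.81% and 10.6% of conduit artery ECs and in 0.533%, 0.897%, 1.44% and 1.80% of other ECs, and unthinned in 10.2%, 10.8%, 14.2% and 15.4% against 0.786%, 1.70%, 2.09% and 2.36%. Ciita, the class II master regulator, had only 0, 1, 2 and 13 UMIs in conduit artery ECs. The leukocyte gene Ptprc was seen in 1, 1, 1 and 10 conduit artery ECs, fewer than the 43, 57, 29 and 140 cells with a Cd74 UMI, and the part of leukocyte transcripts in the class II counts was not tested.

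Capillary genes were lower, as were most genes of fatty acid handling. Of 13 capillary markers tested, 12 were called lower and 1, Btnl9, higher (log2 0.44), with a median log2 ratio of -1.03. Against the other ECs with Gja4, Hey1 and Sema3g UMIs described below, Btnl9 turned to -0.41 and was called lower. Fabp4, the abundant fatty acid carrier, stood at 18074, 19393, 15089 and 17337 CPM against 26832, 35124, 26623 and 27283 CPM (1.73-fold lower). Lpl, lipoprotein lipase, stood at 487, 364, 331 and 403 CPM against 1645, 1338, 1353 and 1227 CPM (3.63-fold lower). Conduit artery ECs thus still held many UMIs of both genes, and the part that came from outside the cell was not tested. Among 21 fatty acid and lipid genes tested, 14 were called lower, including Gpihbp1, Cd36, Fabp5, Meox2 and Pdk4 (lost without NC library 1 or 2, log2 -0.48 and -0.45), and 4 higher, including the cholesterol exporter Abca1 (log2 1.55 ± 0.08 SE) and Apoe (log2 0.29 ± 0.06 SE). Vein markers split into 4 higher (Vwf, Vcam1 and Il6st among them) and 4 lower (Cpe, Ephb4, Nr2f2 and Ptgs1) of 9 tested.

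**Figure D3:**
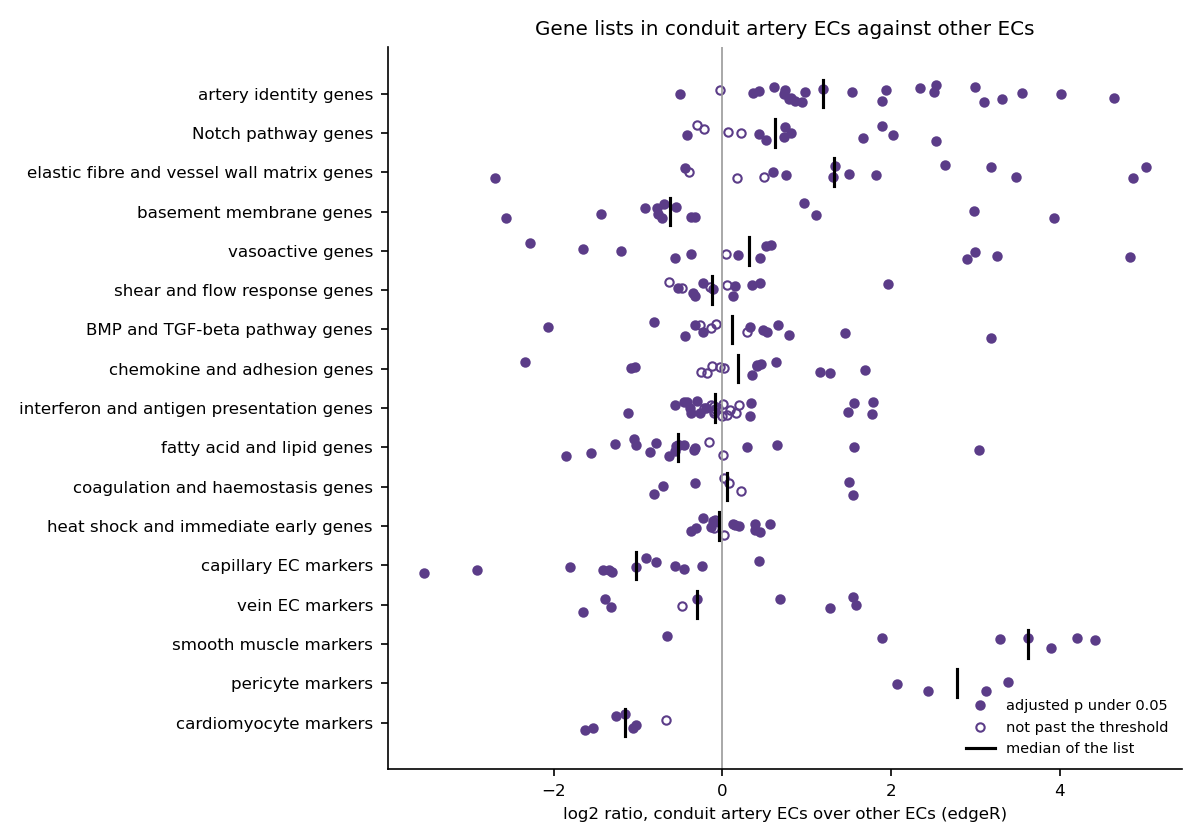
Fitted log2 ratio of conduit artery ECs over other ECs (edgeR, 4 libraries) for each tested gene of 17 lists, without the genes that the rule read. Filled points were called at an adjusted p under 0.05 and black bars are medians, which lie at 1.20 for artery identity genes and -1.03 for capillary EC markers.

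Transcripts of mural cells were also higher in conduit artery ECs. The 8 smooth muscle markers summed to 389, 406, 1248 and 432 CPM against 115, 106, 146 and 134 CPM, and 6 of 7 tested were called higher. Acta2, the most abundant of them, was seen in 23, 17, 19 and 44 cells, with up to 44, 115, 60 and 33 UMIs in a cell. The pericyte markers that the rule did not read summed to 968, 799, 1184 and 804 CPM against 190, 188, 284 and 176 CPM, nearly all from Rgs5, and 4 of 4 tested were called higher. For an alternative, cells with a UMI of the smooth muscle, fibroblast, cardiomyocyte, or leukocyte and platelet markers (Gsn, Myl9, Lyz2 and Tpm2 apart) were left out. Pericyte markers were not read for it, so it did not remove cells for Rgs5. Smtn was read, the most abundant smooth muscle marker in other ECs (mean 86.9 CPM). Without these cells, 1141 conduit artery ECs remained. They held 229, 307, 82.6 and 146 CPM of Rgs5 against 124, 152, 153 and 97.5 CPM, so that HFpEF library 1 then lay below its other ECs. In those cells Clu stood at 717, 495, 627 and 682 CPM and Mgp at 1382, 1826, 1397 and 1267 CPM. Cardiomyocyte markers were lower (0 of 7 called higher, 6 lower, summed 55.8, 27.9, 161 and 49.2 CPM against 109, 75.0, 324 and 105 CPM, Myl2 the most abundant). Of 4 fibroblast markers tested 2 were called higher (summed 36.0, 33.4, 55.4 and 88.1 CPM against 13.4, 15.8, 100.4 and 31.1 CPM, HFpEF library 1 going the other way, Gsn the most abundant). Leukocyte and platelet markers summed to 29.3, 151, 31.2 and 704 CPM against 59.3, 65.4, 59.4 and 81.5 CPM, where 1075 of the 1078 S100a8 UMIs in HFpEF library 2 lay in 1 cell and 211 of the 272 Lyz2 UMIs in NC library 2 in another. Without NC library 2 Lyz2 was not called (log2 0.24, against 1.44). Gsn was not called without NC library 1 (0.94), and its log2 ratio of 1.17 was 1.82 without HFpEF library 1. Pf4, called lower, was so only with all 4 libraries or without NC library 2 (log2 -0.93 and -1.83). Cd79a, also lower (-1.97), stood at -1.31 without NC library 2 and -2.78 without HFpEF library 2, Myh6 was not called without NC library 1 (-1.27), and Acta2 (4.20) was at 4.89 without HFpEF library 2. Flt4 was the 1 lymphatic marker and Cgnl1 the 1 endocardial marker called higher, Cgnl1 not without NC library 1, HFpEF library 1 or HFpEF library 2 (log2 0.31, 0.26 and 0.10).

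For a comparison nearer in arterial genes, added after the data had been seen, the other ECs were limited to the 2815 cells with at least 2 UMIs in all of Gja4, Hey1 and Sema3g. These cells still held capillary genes, with 364, 359, 229 and 308 CPM of Car4, so they are named by this rule only. Of 9989 genes tested, 1035 (10.4%) were called higher in conduit artery ECs and 829 (8.3%) lower. Of 14 elastic fibre and vessel wall matrix genes tested, 9 were called higher and 0 lower. Among the higher were Lox (log2 4.67 ± 0.31 SE), Mgp (log2 4.08 ± 0.23 SE), Eln (log2 2.54 ± 0.13 SE) and Fn1 (log2 1.86 ± 0.08 SE). Ltbp1 (0.25), Loxl2 (0.41) and Emilin1 (0.22, but lower against all other ECs) were not called. The cytokine-like gene Cytl1 (log2 5.01 ± 0.26 SE), Npnt (4.60) and Clu (3.01) were higher as well. The metallothionein genes Mt1 (log2 3.46) and Mt2 (4.05) and the endothelin gene Edn1 (1.43) were also higher. Of 22 artery identity genes that did not choose these cells, 16 were called higher and 3 (Cxcl12, Cxcr4 and Nrp1) lower, with a median log2 ratio of 0.47 against -0.01 over all genes tested. Their log2 ratios ranged from 5.01 for Cytl1, with 2.26 for Tspan8, 1.82 for Vegfc and Jag1, 0.33 for Dll4 and 0.26 for Sox17 between, to -0.49 for Cxcl12, and Efnb2 was not called (log2 0.07 ± 0.05 SE, edgeR adjusted p = 0.41). Car4 (log2 -2.54), Lpl (-1.62), Col15a1 (-1.89) and Aplnr (-1.86) were lower in conduit artery ECs.

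The conduit artery ECs varied among themselves by which of the 3 genes had been seen. Cells with UMIs of Fbln5 alone were 50.8%, 46.6%, 66.2% and 61.5%, and cells with UMIs of 2 or 3 of the genes were 48.0%, 52.1%, 33.8% and 37.6%, the first share being larger in the shallower HFpEF libraries. Since this split rests on the genes that chose the cells, its values are a description. Mgp stood at 1531, 2441, 1592 and 1455 CPM in cells with 2 or 3 genes and at 233, 433, 497 and 472 CPM in cells with Fbln5 alone. Cytl1 stood at 210, 204, 146 and 107 CPM against 0, 18.5, 47.4 and 23.4 CPM. The angiotensin-converting enzyme gene Ace stood at 213, 260, 192 and 174 CPM against 107, 97.1, 89.3 and 78.0 CPM. In every library these 3 genes, with Vcam1, Col5a2, Bgn, Htra1, Palld, Gkn3, Dhh and Fbln2, were higher in the cells with 2 or 3 genes. Car4 (32.2, 25.6, 9.12 and 46.1 CPM against 89.0, 72.5, 25.1 and 87.9 CPM), Lpl, Cxcl12, Cd300lg, Pth1r, Emcn and Hspg2 were lower in them.

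Conduit artery ECs were 6.42% of ECs in NC library 1 (95% exact Clopper-Pearson interval 5.84 to 7.04), 8.68% in NC library 2 (7.99 to 9.42), 4.29% in HFpEF library 1 (3.73 to 4.90) and 5.06% in HFpEF library 2 (4.74 to 5.39). The mean share was 7.55% ± 1.60 (SD, n = 2) in NC and 4.67% ± 0.545 (SD, n = 2) in HFpEF, with no overlap. The rule counts UMIs, which were fewer per cell in HFpEF. After thinning to 1000 UMIs per cell the shares were 1.79%, 2.88%, 2.04% and 2.29%, the diets overlapped, and the difference shrank from -2.88 to -0.175 percentage points. With 2 libraries a group, an exact permutation test cannot reach p = 0.05.

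HFpEF was then compared with NC within conduit artery ECs, with diet as the only term. The rule counts UMIs and cells were shallower in HFpEF, so the chosen cells can differ by diet. Cells with Fbln5 alone made up 66.2% and 61.5% of conduit artery ECs in HFpEF, against 50.8% and 46.6% in NC. The part of this in the diet changes was not tested beyond thinning, which leaves fewer cells and counts and after which fewer genes were called. Of 9931 genes tested, 23 (0.232%) were called higher in HFpEF and 10 (0.101%) lower. The rises included the chaperone genes Hspa1a, Hspa1b and Hsph1 and the cytokine genes Il6, Cxcl10 and Gdf15, and the falls the cytochrome gene Cyp1a1, the sulfotransferase gene Sult1a1 and the metallothionein gene Mt1. The number of calls depended on the tool and the cells: DESeq2 called 8 genes, and with at least 3 arterial UMIs per cell edgeR called 0, against 973 at an unadjusted p under 0.05. In the fit of other ECs, which share the libraries, 9 of 12756 genes (0.0706%) were called, and for the named genes their log2 changes are given below. Where 1 library is left out of the diet comparison, the lone library of its diet is assumed to vary like the pair of the other, so calls gained that way are weak.

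Of 16 heat shock and immediate early genes, 3 were called, all higher in HFpEF and all encoding chaperones, which refold damaged proteins, while the median log2 change of the 16 was -0.00. Hspa1a (chr17:34969190-34972156), an inducible HSP70, stood at 3148, 1747, 5599 and 7202 CPM in conduit artery ECs, with a mean of 2447 ± 991 (SD, n = 2) in NC and of 6401 ± 1133 (SD, n = 2) in HFpEF, and rose 2.61-fold (edgeR adjusted p = 0.018). Hspa1b (chr17:34956436-34959238), its near-identical neighbour, stood at 2224, 867, 3631 and 5963 CPM and rose 3.10-fold (edgeR adjusted p = 0.032, log2 1.63, or 2.46 without NC library 1). Reads of this pair could be split between the copies, so neither value is certain alone. Hsph1 (chr5:149614287-149636376), a co-chaperone of HSP70, stood at 105, 36.1, 184 and 302 CPM and rose 3.64-fold (edgeR adjusted p = 0.026, log2 1.86, or 2.79 without NC library 1 and 1.25 without NC library 2). For the 3 genes the lower HFpEF library exceeded the higher NC library, and NC library 1 exceeded NC library 2. The mitochondrial chaperonin genes Hspd1 (109, 85.9, 164 and 213 CPM, log2 0.99) and Hspe1 (164, 102, 227 and 324 CPM, log2 1.09) were called as well. In other ECs the fitted log2 changes of Hspa1a, Hspa1b and Hsph1 were 1.46, 1.69 and 2.02, not called, and the differences from those in conduit artery ECs were not called either. With DESeq2 the adjusted p of the 3 was 0.16, 0.45 and 0.43, over all alternatives it lay between 1.8e-28 and 0.45.

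The bases before the start of these genes are shown because these genes were called together. The 250 bases upstream were taken from RefSeq starts on GRCm38.p6 and searched on both strands for the inner letters of the heat shock element, GAANNTTC and TTCNNGAA, of which at least 1 occurs in 12.8% of 32851 promoters. Capitals mark the matches, which are a description of the letters and not of binding.
Hspa1a, chr17:34972157-34972406, minus strand: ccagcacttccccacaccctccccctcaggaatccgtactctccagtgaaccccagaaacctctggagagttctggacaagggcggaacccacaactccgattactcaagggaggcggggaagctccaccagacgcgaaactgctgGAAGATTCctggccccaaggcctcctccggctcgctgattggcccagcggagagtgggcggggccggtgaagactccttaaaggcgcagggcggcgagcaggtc
Hsph1, chr5:149636337-149636586, minus strand: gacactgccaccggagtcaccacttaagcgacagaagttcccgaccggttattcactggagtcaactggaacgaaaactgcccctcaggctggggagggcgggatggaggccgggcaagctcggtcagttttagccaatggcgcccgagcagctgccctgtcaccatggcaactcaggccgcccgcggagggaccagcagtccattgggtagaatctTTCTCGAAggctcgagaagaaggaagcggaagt
The match began 104 bases before the start in Hspa1a and in Hspa1b, and 33 bases before it in Hsph1, or 54 bases before another RefSeq start of Hsph1. Hspd1 and Hspe1 lie back to back on chromosome 1, and the stretch between their starts held 3 overlapping matches, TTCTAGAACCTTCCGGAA as read for Hspe1. The window before another RefSeq start of Hspd1 (chr1:55088244-55088493) held no match.

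Of 16 chemokine and adhesion genes 2 were called, Il6 and Cxcl10, both higher in HFpEF, while the median log2 change of the 16 was 0.08, 9 lay above 0, and at an unadjusted p under 0.05 there were 2 higher and 2 lower. Il6 stood at 20.7, 32.7, 50.2 and 101 CPM and rose 3.07-fold (edgeR adjusted p = 0.018), but without HFpEF library 2 its log2 change went from 1.62 to 0.91 and was not called (edgeR adjusted p = 0.19). Cxcl10 (chr5:92346638-92348889), the T-cell chemoattractant, stood at 20.7, 52.8, 116 and 106 CPM and rose 2.90-fold (edgeR adjusted p = 0.028, log2 1.54, or 2.39 without NC library 2). Its UMIs lay in 12, 31, 14 and 81 cells, and without cells holding UMIs of other cell types the log2 change was 1.03 (edgeR adjusted p = 0.28, with 2.5e-15 to 0.38 over all alternatives). Ifit2, an interferon-induced translation inhibitor, stood at 23.4, 33.4, 55.4 and 67.5 CPM and rose 2.20-fold (edgeR adjusted p = 0.028, or 0.11 without HFpEF library 2, log2 0.97). Ifi211, of a family of similar DNA sensors among which reads may be shared, stood at 6.75, 9.54, 31.2 and 30.9 CPM and rose 3.69-fold (edgeR adjusted p = 0.018). For these 4 genes the libraries of the diets did not overlap, which held in the same direction for 20.8% of all genes tested and in the other for 21.4%. The class I gene H2-Q6, one of several similar copies, was also called (128, 177, 317 and 271 CPM, log2 0.92, or 0.71 and not called without NC library 1). Of the interferon and antigen presentation list, 1 of 28 tested genes was called, Ifit2, yet 25 had a log2 change above 0, with a median of 0.47 against -0.01 over all genes, and 15 did not overlap between the diets, all higher in HFpEF. In other ECs the fitted log2 changes of Il6, Cxcl10, Ifit2 and Ifi211 were 2.04, 0.93, 0.64 and 1.12, none called. The median of that list in other ECs was 0.50, and none of its 29 tested genes was called by edgeR. At an unadjusted edgeR p under 0.05 there were 16, all higher in HFpEF, against 2296 of all 12756 genes. The diets did not overlap there for 21, all higher in HFpEF, against 3106 higher and 3281 lower over all genes.

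The 250 bases before Cxcl10 are shown for the same reason, with capitals marking the letters GAAANNGAAA of the interferon-stimulated response element, which on either strand (TTTCNNTTTC) occur in 2.98% of promoters. Ifit2 had no match in its windows.
Cxcl10, chr5:92348890-92349139, minus strand: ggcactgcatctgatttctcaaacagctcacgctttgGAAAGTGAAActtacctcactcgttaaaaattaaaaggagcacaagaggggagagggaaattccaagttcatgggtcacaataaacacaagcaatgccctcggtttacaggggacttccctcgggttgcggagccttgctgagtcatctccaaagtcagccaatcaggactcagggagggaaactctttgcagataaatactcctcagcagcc
The match began 213 bases before the start.

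Gdf15, a stress-induced cytokine, stood at 114, 81.1, 367 and 192 CPM and rose 2.74-fold (edgeR adjusted p = 0.024), although after thinning to 1000 UMIs its log2 change was 0.79 and not called. Ptger4, a prostaglandin E2 receptor, stood at 26.6, 27.9, 57.1 and 67.5 CPM and rose 2.34-fold (edgeR adjusted p = 0.018). It was called under 7 of 12 alternatives, with log2 changes of 1.07 to 1.63, and not without HFpEF library 2 (log2 1.09). The endothelin receptor gene Ednrb rose 1.99-fold, from 58.1 and 45.7 to 102 and 104 CPM, and was the 1 called of 14 tested vasoactive genes. Angptl4, an inhibitor of lipoprotein lipase, rose 2.10-fold, from 29.3 and 36.8 to 58.9 and 75.8 CPM, and was not called without HFpEF library 2 (log2 0.84, against 1.07). Neither Ednrb nor Angptl4 overlapped between the diets. In other ECs Ptger4 was called too (log2 1.11), and Gdf15, Ednrb and Angptl4 had log2 changes of 1.69, 0.57 and 0.07, not called. Myc stood at 1.35, 1.36, 12.1 and 13.2 CPM, and Phlda1, Ccdc152, Septin10, Ifitm1 and mt-Nd5 were called too. Without HFpEF library 2, Ccdc152 (log2 2.44) and Septin10 (0.98) were not called (1.40 and 0.73), and without NC library 1 mt-Nd5 (0.75) was not called (0.60). Lcn2, which encodes the neutrophil-associated lipocalin 2, had the largest fitted rise of the named genes with a mean of at least 10 CPM (log2 2.63, or 3.45 without NC library 1 and 1.98 without NC library 2). However, 92 of its 97 UMIs in HFpEF library 2 lay in 1 cell, it was not called without that library (log2 1.21), and it turned to -0.69 without cells holding UMIs of other cell types (-0.66 in other ECs, not called).

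Among the falls, Cyp1a1 (chr9:57687928-57703824), a cytochrome P450 induced through the aryl hydrocarbon receptor, was almost absent in HFpEF. It had 65 and 67 UMIs in the conduit artery ECs of the NC libraries (29.3 and 22.8 CPM) and 0 and 1 UMI in those of the HFpEF libraries, where a count of 0 in HFpEF library 1 still allows 3 counts or 5.19 CPM. Over both libraries of a diet the level in NC was 100.2 times that in HFpEF, with a 95% exact interval of 17.7 to 3986 that covers counting error only (edgeR adjusted p = 0.00018). The fitted log2 change was -6.40, or -8.63 without HFpEF library 2, and it was called under 9 of 11 alternatives. In other ECs Cyp1a1 stood at 31.8, 34.9, 0.818 and 1.64 CPM and was called as well. Timp4, an inhibitor of metalloproteases and a capillary marker, stood at 467, 272, 116 and 163 CPM in conduit artery ECs and fell 2.55-fold (edgeR adjusted p = 0.018), although after thinning its log2 change was -0.27 and not called. The sulfotransferase gene Sult1a1 stood at 180, 180, 62.3 and 91.4 CPM and fell 2.21-fold (edgeR adjusted p = 0.018). Mt1, a metal-binding metallothionein, stood at 322, 365, 215 and 158 CPM and fell 1.91-fold (edgeR adjusted p = 0.028, or 0.10 without HFpEF library 2, log2 -0.66). In Timp4, Sult1a1 and Mt1 both HFpEF libraries lay below both NC libraries. In other ECs the 3 genes had fitted log2 changes of -1.20, -0.84 and 0.69, not called, and Timp4 stood at 1380, 1013, 568 and 471 CPM there.

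Atoh8, a transcription factor induced by BMP signalling, stood at 50.9, 57.2, 26.0 and 26.1 CPM (log2 -1.07, or -1.04 and not called without HFpEF library 2). It was called under 7 of 12 alternatives, with log2 changes of -1.15 to -0.88. The death receptor gene Fas stood at 212, 187, 107 and 122 CPM (log2 -0.78, or -0.69 and not called without NC library 1). Fas was called under 8 of 12 alternatives, with log2 changes of -0.87 to -0.50. Ccdc28b fell from 51.3 and 52.5 to 13.9 and 23.7 CPM (log2 -1.28, or -1.88 without HFpEF library 2). The histone gene H4c4 stood at 19.8, 28.6, 6.93 and 8.39 CPM (log2 -1.60) and was not called without NC library 2 (-1.31) or HFpEF library 2 (-1.79). In other ECs Atoh8, Fas, Ccdc28b and H4c4 had log2 changes of -0.72, -0.85, -1.09 and -0.60, not called, while Thrsp was called there (-1.06) and Tbc1d10a not (-0.73). In conduit artery ECs Thrsp, a regulator of lipogenesis, and Tbc1d10a were next in order but did not pass (edgeR adjusted p = 0.057 for both), and without some libraries they did: Thrsp without NC library 2, HFpEF library 1 or HFpEF library 2 (log2 -1.09, -0.78 and -1.11), Tbc1d10a without NC library 2 or HFpEF library 1 (-1.03 and -0.98). Both also passed with the library number as a block and without the filter on low counts.

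**Figure D4:**
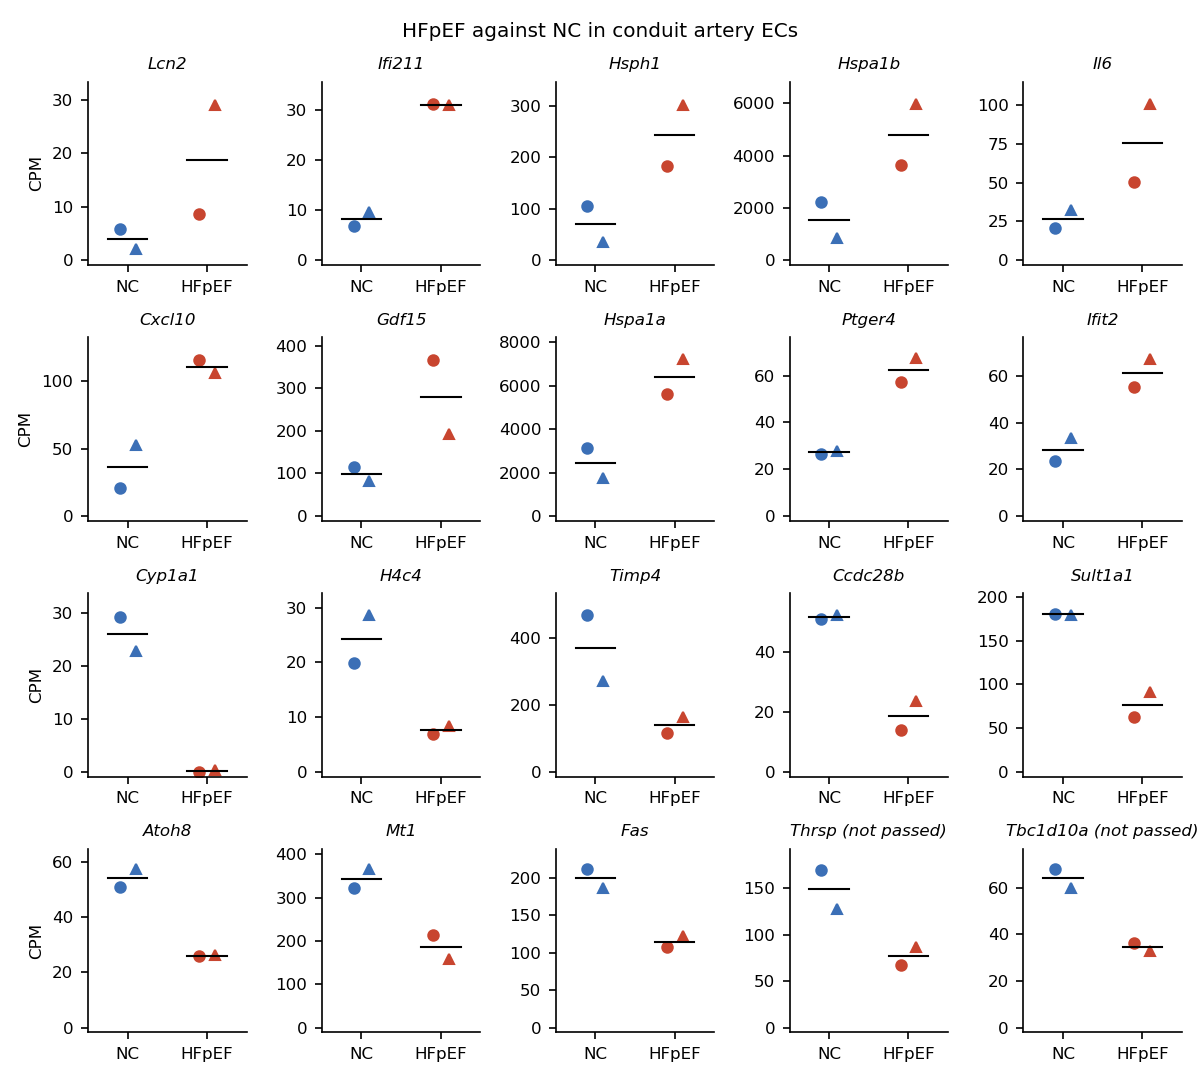
Levels in CPM in conduit artery ECs of the 20 genes named for HFpEF against NC, 1 point per library (circle library 1, triangle library 2, bars are means of 2). For each gene the 2 HFpEF points lie on 1 side of the 2 NC points, and Cyp1a1 lies at 0 and 0.300 CPM in HFpEF.

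None of the 25 artery identity genes was called for diet, their median log2 change was -0.18, and 4 lay higher and 10 lower in HFpEF without overlap (20.8% and 21.4% of all genes tested). By edgeR 10 of the 25 had an unadjusted p under 0.05, 7 of them lower in HFpEF, against 1064 of all 9931 genes tested. Mgp had a log2 change of -0.43 and was not called (edgeR adjusted p = 0.46), but was called without NC library 1 (-0.79) and after thinning (-1.17). The most abundant identity gene was Tm4sf1 at 2331, 3454, 2554 and 2578 CPM. None of 14 tested elastic fibre genes (Ltbp4 the most abundant, 2 with an unadjusted p under 0.05), 14 basement membrane genes (1) or 14 Notch genes (3) was called by edgeR. Smooth muscle markers had a median log2 change of 0.56 in conduit artery ECs, pericyte markers of 0.95, fibroblast markers of 1.23 (4 tested, 3 with an unadjusted p under 0.05, all higher) and cardiomyocyte markers of 0.92 (5 tested, all above 0), none called by edgeR. In other ECs these medians were 1.37 (edgeR called Acta2 and Tagln higher), 0.97, 1.63 and 1.12. In the fit without cells holding UMIs of other cell types, 28 genes were called. That fit added no limit on pericyte markers, so it could not show the part of pericyte transcripts in the diet comparison. The part of the other transcripts was not tested beyond it. Scarb1, the floxed gene, stood at 86.9, 29.0, 81.4 and 42.3 CPM in conduit artery ECs and at 113, 47.9, 113 and 52.0 CPM in other ECs. In both classes the libraries numbered 1 lay well above those numbered 2, in either diet, and whether the number stands for genotype was not tested. It was lower in conduit artery ECs than in other ECs (log2 -0.51 ± 0.08 SE, edgeR adjusted p = 0.00011), and the diets overlapped (log2 -0.08 ± 0.39 SE, edgeR adjusted p = 0.97).

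Whether the effect of diet differed between conduit artery ECs and other ECs was tested as the interaction of diet and class, with library as a term. Of 11692 genes, 11 (0.0941%) were called. Mgp showed the smallest adjusted p: in conduit artery ECs the diets overlapped at 875, 1538, 912 and 878 CPM, whereas in other ECs Mgp stood at 19.2, 22.6, 51.6 and 38.8 CPM, with HFpEF above NC. The difference of the log2 changes was -1.47 ± 0.15 SE (edgeR adjusted p = 6.5e-05), and it was called under each of 11 alternatives, with values from -1.76 to -0.94. In other ECs the median log2 change for diet was 1.37 for smooth muscle markers, of which edgeR called Acta2 and Tagln higher. It was 0.97 for pericyte and 1.63 for fibroblast markers, none called by edgeR. The part of such transcripts in the difference was not tested beyond these alternatives, none of which added a limit on pericyte markers. The other ECs with 1 arterial UMI, just outside the limit, also held more Mgp in HFpEF (269 and 290 CPM) than in NC (58.8 and 99.3 CPM). Their depth was lower in HFpEF (1977 and 1854 against 3984 and 3889 median UMIs), and the part of such cells in the difference was not tested. After thinning the difference was called as well (-1.05), but the pattern was another: other ECs then overlapped between the diets (44.9, 107, 68.0 and 73.1 CPM), and conduit artery ECs were lower in HFpEF (3165, 4429, 1534 and 1788 CPM). The metallothionein genes Mt1 and Mt2 behaved alike: Mt2 stood at 119, 91.3, 69.3 and 58.2 CPM in conduit artery ECs and at 4.07, 2.06, 7.83 and 5.39 CPM in other ECs. The differences were -1.78 ± 0.24 SE for Mt2 (edgeR adjusted p = 0.0018) and -1.66 ± 0.23 SE for Mt1 (edgeR adjusted p = 0.0029). Other ECs with 1 arterial UMI held 25.4, 12.4, 47.1 and 73.9 CPM of Mt1. Of Mt2 they held 0.877, 1.91, 5.54 and 14.5 CPM, from 1, 2, 2 and 29 UMIs. Both were thus higher there in HFpEF, and the part of such cells in the differences of Mt1 and Mt2 was not tested. Mgp, Mt1 and Mt2 stayed called when any 1 library was left out, Mt1 at -2.30 without NC library 1 and -1.11 without NC library 2. Mt1 was not called by DESeq2 (-1.69, adjusted p = 0.9998, the highest of 11 alternatives, with 6.6e-29 the lowest), and Mt2 was not called after thinning (-2.02, edgeR adjusted p = 0.16, the highest of 11, with 5.8e-11 the lowest).

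The other 8 were each lost without at least 1 library. Angptl4 changed by a log2 value of 1.07 in conduit artery ECs and 0.07 in other ECs (difference 0.96, or 0.87, 1.06 and 0.89 and not called without NC library 1, NC library 2 and HFpEF library 2). The phosphatase gene Nudt4 (-0.83) was lost without NC library 2 (-0.56) or HFpEF library 2 (-0.62), and Smad6 (-0.78) without NC library 1 (-0.68) or HFpEF library 2 (-0.62). The adhesion receptor Icam1 stood at 975, 774, 606 and 721 CPM in conduit artery ECs and at 607, 493, 529 and 691 CPM in other ECs (-0.56, or -0.56, -0.58 and -0.52 and not called without NC library 1, NC library 2 and HFpEF library 2). The smooth muscle gene Myh11 (-1.92) was not called without NC library 1 (-1.98), NC library 2 (-1.84) or HFpEF library 2 (-1.23). Igkc, Coro1a and Lrg1 rested on few UMIs in conduit artery ECs: Coro1a had 4, 1, 2 and 45, and 10 cells held the 45. Without HFpEF library 2 their differences went from 6.31, 3.88 and 2.60 to -0.93, 2.10 and 0.01, and none was called. Without NC library 2 they were 6.36, 2.28 and 2.78 and not called, and Lrg1 was not called without NC library 1 (2.32) either, where Coro1a stood at 5.81.

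**Figure D5:**
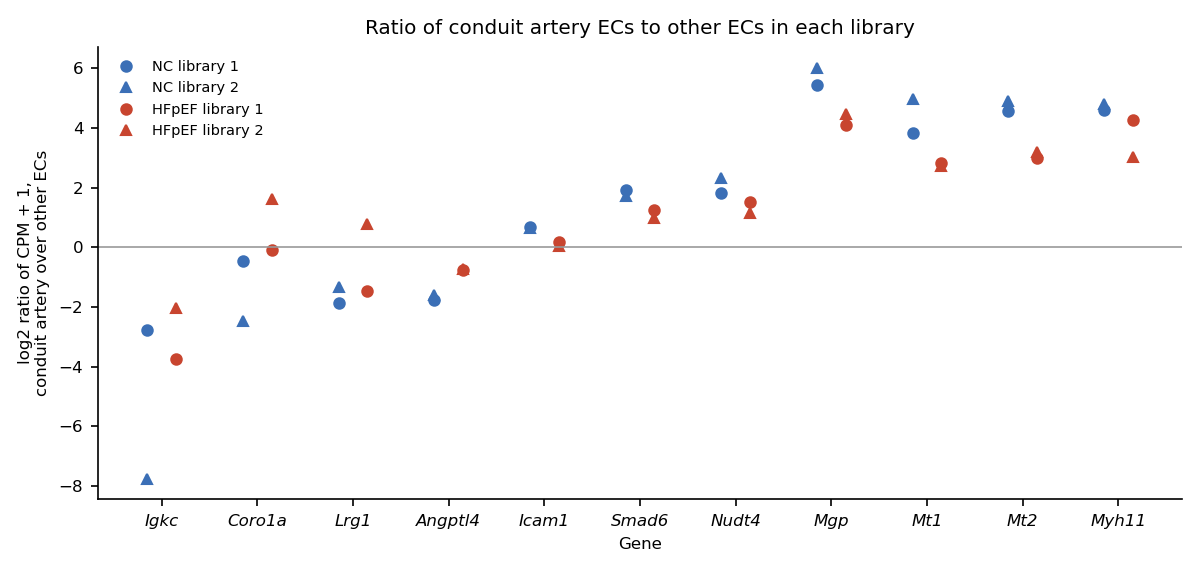
Log2 ratio of conduit artery ECs to other ECs in each library, with 1 CPM added to both, for the 11 genes whose diet effect differed between the classes (blue NC, red HFpEF, circle library 1, triangle library 2). For Mgp, Mt1, Mt2, Myh11, Smad6, Icam1 and Nudt4 both HFpEF points lie below both NC points, and for Angptl4 and Coro1a above them.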

How the data were processed

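Single-cell RNA-seq (10x Genomics Chromium 3′ v3) of sorted reporter-positive left ventricular ECs was analysed in 4 libraries. Per the submitters' processing notes, the authors trimmed reads with fastp and counted UMIs on mm10 with Cell Ranger 5.0.1. The deposited values are UMI counts per gene and cell, not divided by library size, and the study's methods describe reads equalised between samples. Doublets were not removed. An alternative left out cells with UMIs of other cell types. It read the smooth muscle, fibroblast, cardiomyocyte, and leukocyte and platelet lists without Gsn, Myl9, Lyz2 and Tpm2, and no pericyte marker. The members, the gene lists and the tests were chosen with earlier results of these data known.

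Counts were summed per library over conduit artery ECs and over other ECs, and tested with edgeR 4.0.16 (R 4.3.3): TMM, filterByExpr, quasi-likelihood test, Benjamini-Hochberg adjustment, a call at an adjusted p under 0.05. DESeq2 1.42.0 was an alternative. The other steps ran in Python 3.11.15 (numpy 2.4.6, scipy 1.17.1, pandas 2.3.3; figures with matplotlib 3.10.9). TMM factors lay between 0.955 and 1.032. The code was tested on simulated data. Of 31253 gene identifiers, 31184 (99.8%) matched GENCODE M21 for GRCm38, which gave gene positions. Intervals are 95% exact and, with floors of 3 counts, cover counting error only.

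Named genes were the given markers, Scarb1 and called members of the lists, or where none was called up to 4 abundant ones. For HFpEF against NC they were the 10 largest called rises and the 10 largest falls with a mean of at least 10 CPM and no overlap of the diets, filled up by unadjusted p. Between classes they were the 15 highest and 10 lowest called ratios with at least 20 CPM in the higher class and 1 direction in 4 of 4 libraries, and for the difference of the diet effect the called genes, up to 5 per direction. Unnamed gene models were counted only. Smad6 and Icam1, Htra1 and the genes of the split by Fbln5, the genes named for the comparison with other ECs holding Gja4, Hey1 and Sema3g UMIs, and called diet genes beyond the 10 were named after their values were seen. Some genes that the rule or a list would name are not reported here.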

Additional observations from a re-analysis of the deposited data

Results flagged for a closer look

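The effect of HFpEF differed between conduit artery ECs and other ECs for 11 genes by the test of the difference itself. The log2 change in conduit artery ECs minus that in other ECs was 6.31 for Igkc, 3.88 for Coro1a, 2.60 for Lrg1 and 0.96 for Angptl4. It was -1.92 for Myh11, -1.78 for Mt2, -1.66 for Mt1, -1.47 for Mgp, -0.83 for Nudt4, -0.78 for Smad6 and -0.56 for Icam1. For Mgp, Mt1 and Mt2 the class ratio was smaller in both HFpEF libraries than in both NC libraries. In Igkc 1 cell held 7897 of the 8568 UMIs of the other ECs in NC library 2, and in Coro1a 1 conduit artery EC held 17 of 45 in HFpEF library 2. In Myh11 1 conduit artery EC held 65 of 169 in NC library 2. The part of such cells in the differences was not tested.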

How the results depend on the processing

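The class ratios of the 15 highest and 10 lowest named genes kept their sign and call under each alternative that gave a value (14, but 13 for Myh11 and 12 for Igkc), except that Igkc was not called after thinning (-1.75, edgeR adjusted p = 0.25). Clu lay between 3.01 and 4.75 and Mgp between 3.79 and 5.31 on the log2 scale. The 3518 class calls became 1203 after thinning to 1000 UMIs, which leaves fewer cells and counts, and 1867 against other ECs with Gja4, Hey1 and Sema3g UMIs, a comparison added after the data had been seen, in which those 3 genes are counted here but not in the report. The 33 diet calls in conduit artery ECs became 8 with DESeq2, 222 without a filter on low counts, 0 with at least 3 arterial UMIs and 3 after thinning, where 2367 genes were tested, and 107 to 222 when 1 library was left out. The 9 calls in other ECs became 260 with DESeq2, 481 without the filter, 52 after thinning, 40 without cells with UMIs of other types and 21 to 156 when 1 library was left out. The 11 differences of the diet effect became 3 with DESeq2, 60 without the filter, 18 with at least 3 arterial UMIs, 3 after thinning and 6 to 95 when 1 library was left out. The difference in share went from -2.88 to -0.175 percentage points after thinning, and lay between -4.01 and -1.75 when 1 library was left out. Each such fit for diet leaves 1 library in a diet, assumed to vary like the other pair. The cause of these changes was not tested.

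Reversed values were Lcn2 in the diet comparison (-0.69 without cells with UMIs of other types), Clu after thinning (-0.14), Mgp without NC library 2 (0.027, the highest when 1 library was left out, with -0.79 the lowest), Scarb1 with DESeq2 (0.10), without NC library 1 (0.88), without HFpEF library 2 (0.55) and with at least 3 arterial UMIs (0.0025), and the differences of the diet effect of Igkc after thinning (-0.77) and when 1 library was left out (-0.93 without HFpEF library 2 to 6.56) and of Myh11 after thinning (0.43). Among single genes, 593 results under the alternatives kept direction and side of the threshold, 87 lost the call and 11 gained it.

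For libraries of the same number, the correlation of their deviations over genes was 0.041 in conduit artery ECs (5899 genes) and -0.0055 in other ECs (5764 genes). A correlation over all genes cannot show a difference that touches few genes, so it does not decide whether the numbers pair the libraries. Scarb1 followed the number in both diets, and the labels do not say whether the number stands for genotype. With the replicate block 136 genes were called in conduit artery ECs and 376 in other ECs, and Scarb1 was at 0.25. Depth limits genes under about 5.19 CPM in HFpEF library 1.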
